A study of Gallus gallus with 28 samples.

Results

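The comparison described here sets B41-13, a BTK knockout line of chicken DT40 B cells that was given human BTK, against B7.10, the knockout itself. It rests on 8 of the 28 arrays of the study, 4 of each line, all grown in serum batch 1 and chosen by line, serum batch and condition. DT40 is a chicken B-cell lymphoma line with surface IgM. The parental DT40 and B46-5, the knockout with human BTK that lacks kinase activity, serve for reference with 4 arrays each from the same serum batch. All lines share the lymphoma background, and B7.10, B41-13 and B46-5 share the disrupted endogenous BTK. Each line was sampled after 6 h and 24 h without stimulation (C6 and C24) and after 2 h and 6 h with a stimulus labelled IgM (M4), written S2 and S6. M4 is an antibody against chicken IgM that is used to cross-link the receptor. Cells started in serum-free medium before culture with fetal calf serum. Every array held RNA of 10 pooled experiments, and each line and condition had 1 array. B41-13 is 1 line, so the added BTK cannot be told apart from anything else that sets this line apart from B7.10.

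Bruton's tyrosine kinase (BTK) is a Tec-family kinase of B cells. After the B-cell receptor is engaged, SYK and Src-family kinases such as LYN activate BTK, which phosphorylates phospholipase C gamma 2. The products of that lipase release calcium and activate protein kinase C. These signals turn on NFAT, NF-kB and ERK, and with them a first wave of immediate-early genes, among them EGR1 and NR4A family members, and of feedback inhibitors such as TNFAIP3 and NFKBIA. Loss of BTK causes X-linked agammaglobulinaemia in humans.

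The labels of 3 of the 16 arrays disagree. For B41-13 at S6 the source name gives B46-5 and 2 h, for B46-5 at C24 the description gives 6 h, and for B46-5 at S6 the source name gives 2 h. Titles were used. Every one of the 16 arrays correlated best with an array of its own titled line. Array medians lay between 4.37 log2 (B41-13 at S2) and 4.48 (B41-13 at C24). Of 11 B-cell markers, 7 had a probe set, and over the 8 arrays CD79B lay between 11.2 and 11.9 log2, CD74 between 11.2 and 12.5 and POU2AF1 between 10.6 and 11.1, while PAX5 read no more than 5.37. Levels under 3.96 log2, the level below which the dimmest 40% of probe sets lie, are close to background, and differences that start or end there are lower bounds. Fewer cells of a type and less RNA per cell cannot be told apart in these bulk samples.

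The array holds 1 probe set for chicken BTK. Its level was 5.09, 5.30, 5.00 and 5.14 log2 in B7.10 at C6, C24, S2 and S6, and 5.61, 5.90, 5.97 and 5.89 in B41-13. All 4 B41-13 arrays lay above all 4 of B7.10, by 0.71 ± 0.09 log2 (SE, 4 arrays a line; limma, Benjamini-Hochberg adjusted p = 2.13e-05). B46-5, which also carries a human BTK construct, was 0.12 above B7.10 (adjusted p = 0.577, limma). B41-13 was 0.59 above B46-5 (adjusted p = 0.000121, limma). Parental DT40 stood 4.77 log2 above B7.10. The construct is human BTK, and no source used here says if a probe set for chicken BTK detects it.

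Over the 4 conditions, 1890 of 13009 genes differed between B41-13 and B7.10 (14.5%), 779 higher (5.99%) and 1111 lower (8.54%) in B41-13, each gene read by its brightest probe set (limma, Benjamini-Hochberg adjusted p under 0.05). Among all 38382 probe sets 4130 differed (10.8%), of which 37.5% were higher, and 48.2% of 3984 calls were higher with cyclic loess between arrays. A difference of at least 2-fold was found for 374 probe sets (0.974%). All 374 had the same direction in each of the 4 conditions, which a choice by large mean difference makes likely. On the gene level 1.58% were called with at least 2-fold, 115 of them higher (0.884%) and 91 lower (0.7%), and 32 and 16 with at least 4-fold. All 4 arrays of B41-13 lay above all 4 of B7.10 for 683 genes (5.25%) and below them for 823 (6.33%). Taken by condition and with no test, genes at least 2-fold higher made up 0.984% at C6, 0.776% at C24, 1.29% at S2 and 1.15% at S6, and those at least 2-fold lower 0.769%, 0.723%, 1.26% and 0.853%. Both shares were largest at S2, where differences over all genes also spread most (SD 0.41 log2, against 0.35 to 0.38 elsewhere). Each condition compares 1 array a line, and the B41-13 array at S2 had the lowest median of the 16. Of the 2-fold probe sets, 181 of 207 lay higher in all 4 B41-13 arrays than in any of the 10 B7.10 arrays of 3 serum batches, where all probe sets give 1.97%. Another 126 of 167 lay lower than all 10, where all probe sets give 1.56%. The 2-fold probe sets were chosen with 4 of these 10 arrays, which raises both counts. The median difference of all genes was -0.01 log2. P-values measure the spread of line differences over conditions and include no repeat of a pool.

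Genes of 2 chromosomes were higher in B41-13 as whole blocks. In the GRCg7b gene table, 12848 of the 13009 genes had a chromosome, and 29 chromosomes held at least 50 genes above the background level. The 280 such genes on chromosome 10 differed by a median of 0.27 log2 between B41-13 and B7.10, and 85.4% of them lay higher in B41-13. At C6, C24, S2 and S6 that median was 0.27, 0.33, 0.21 and 0.30. Chromosome 11, with 259 genes, had a median of 0.18, with 0.19, 0.23, 0.17 and 0.25 in the 4 conditions, and 79.9% of its genes lay higher. The medians of the other 27 chromosomes lay between -0.06 and 0.01. Both shifts ran along the whole chromosome: in 3 equal parts of the gene order the medians were 0.20, 0.32 and 0.26 on chromosome 10, and 0.17, 0.16 and 0.22 on chromosome 11.

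Of the genes on chromosome 10, 131 of 358 passed as higher (36.6%), and of those on chromosome 11, 97 of 313 (31%), against 540 of 12177 elsewhere (4.43%). These 2 chromosomes held 5.22% of the genes and 29.7% of the higher calls, but 7 of the 114 at least 2-fold higher calls with a chromosome. Without them 1628 genes were called, 33.2% of them higher in place of 41.2%, a count chosen after the shift was seen. Chromosomes 10 and 11 had medians of -0.01 and -0.02 in DT40 minus B7.10. Chromosome 10 had medians between -0.03 and 0.08 in B46-5 minus B7.10 over the 4 conditions and between 0.23 and 0.34 in B41-13 minus DT40. In B46-5 it was chromosome 28 that stood apart, at 0.30, 0.36, 0.28 and 0.29 above B7.10. Whether calls on these chromosomes go with the added BTK or with another feature of the line cannot be told apart here. Higher members of gene groups on chromosomes 10 and 11 are therefore marked below where they are named. The list counts below also include higher members there that are not named again. These are CEBPG and AARS1 (ATF4), PIAS1 (interferon), NIP7 (ribosome biogenesis), GPI (glycolysis), IL16 (cytokine), TPM1 (cytoskeleton) and DNAJA2 (chaperones).

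**Figure D1:**
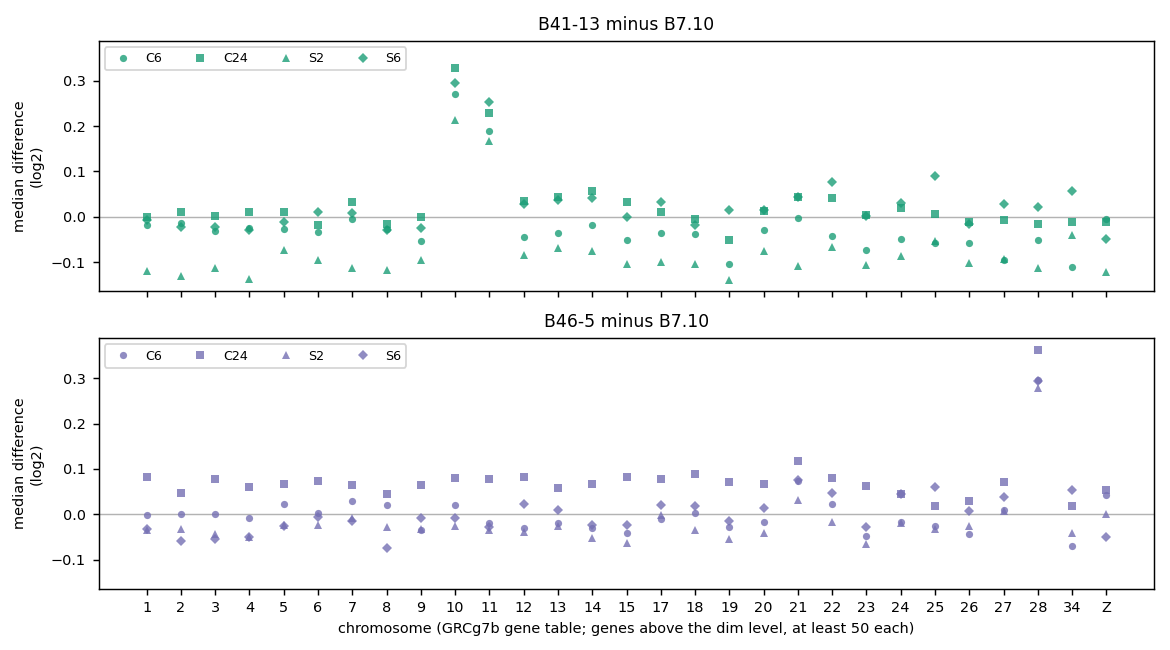
Median log2 difference from B7.10 of the genes on each chromosome, for B41-13 (top) and B46-5 (bottom), with 1 point per condition in serum batch 1. Chromosomes 10 and 11 stand between 0.17 and 0.33 in B41-13 and chromosome 28 between 0.28 and 0.36 in B46-5, while the other chromosomes of B41-13 lie between -0.14 and 0.09.

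The genes with the largest rises from B7.10 to B41-13 included cytoskeletal and membrane proteins, carbonic anhydrases and a cytokine. CA3B, a carbonic anhydrase, stood at 3.43, 3.07, 2.94 and 3.26 log2 in B7.10 and at 8.23, 8.07, 7.01 and 8.25 in B41-13. The difference was 4.72 ± 0.16 (SE, 4 arrays a line; limma, Benjamini-Hochberg adjusted p = 2.34e-12), a lower bound because B7.10 lay near background. DT40 was 6.80 above B7.10 and B46-5 0.14. Over its 10 arrays of 3 serum batches B7.10 reached up to 6.62, below the lowest B41-13 array.

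PALLD, an actin-associated scaffold, read 2.77, 2.77, 2.77 and 2.86 in B7.10 against 6.87, 7.73, 7.28 and 7.39 in B41-13. It was higher by 4.52 ± 0.15 (adjusted p = 2.13e-12, limma), while its other probe set, near background, differed by 0.11. The 2 lines did not overlap, and DT40 stood only 1.21 above B7.10, well under B41-13. BASP1, a myristoylated membrane protein, stood at 5.52, 5.65, 5.80 and 5.24 in B7.10 and at 9.45, 9.28, 10.12 and 10.92 in B41-13. The difference of 4.39 ± 0.26 (adjusted p = 2.79e-09, limma) was 3.80 on its other probe set. B46-5 was -0.07 from B7.10 and DT40 2.69.

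The cytokine IL18, which acts on interferon-gamma production by T and NK cells, read 4.18, 4.03, 5.29 and 4.42 in B7.10 and 7.68, 6.34, 8.14 and 9.71 in B41-13. It was 3.49 ± 0.38 higher (adjusted p = 5.79e-06, limma), and by 1.96 on a dimmer probe set. B41-13 was highest at S6 and lowest at C24, and its lowest array stood above the highest of B7.10. CYBB, the catalytic subunit of the phagocyte NADPH oxidase, stood at 4.06, 4.14, 3.61 and 4.20 in B7.10 and at 7.53, 6.85, 7.69 and 8.34 in B41-13. It was 3.60 ± 0.20 higher, with B46-5 at 3.52 above B7.10 as well. Over its 10 arrays of 3 serum batches B7.10 reached up to 6.44 for CYBB, below the lowest B41-13 array. The circadian and hypoxia-linked repressor BHLHE41 was likewise high in both lines that carry a human construct, 3.79 ± 0.24 above B7.10 in B41-13 and 3.71 in B46-5. For BHLHE41, B7.10 reached up to 8.11 over the same 10 arrays.

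Further large rises were those of DCX (3.53), a microtubule-binding protein, RAB3IP (3.19), an exchange factor for RAB8, TPD52 (3.18) and DYNC2H1 (3.10), a ciliary dynein chain. On their dimmer probe sets DCX differed by 0.14 to 0.90, TPD52 by 0.01 to 1.75 and DYNC2H1 by -0.09 to 2.42. BLB1, a class II MHC beta chain, was higher by 3.41, but near-identical paralogs can share its probes and its 5 probe sets ranged from 0.14 to 3.41. CA12, a membrane carbonic anhydrase on chromosome 10, read 3.80, 4.19, 3.90 and 3.90 in B7.10 and 8.06, 8.75, 6.95 and 7.82 in B41-13, higher by 3.95 ± 0.18. That is far beyond the 0.27 median of its chromosome, and its other probe set gave 1.42. CA12 in DT40 was 0.40 and in B46-5 -0.14 from B7.10. DYNC2H1 was also no higher in DT40 (-0.05), nor was BLB1 by more than 0.18, so these 3 were high in B41-13 but not in the parental line.

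Of the genes lower in B41-13 than in B7.10, LOC395611 fell most. It read 9.19, 9.19, 9.21 and 9.41 in B7.10 and 3.43, 3.10, 2.74 and 3.63 in B41-13, near background there. The difference of -6.03 ± 0.12 (limma, Benjamini-Hochberg adjusted p = 2.17e-15) had no counterpart of that size in B46-5 (-0.83) or DT40 (-0.76). IL13RA1, a receptor subunit for interleukin 13, stood at 7.95, 8.65, 8.89 and 7.96 in B7.10 and at 4.11, 3.83, 3.64 and 3.78 in B41-13. It fell by 4.52 ± 0.19 (adjusted p = 2.1e-11, limma), close to the DT40 difference of -4.58, with B46-5 in between at -2.44. Its other probe set, near background, differed by -1.08.

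PROM1, a membrane glycoprotein of stem and progenitor cells, read 6.85, 7.54, 7.58 and 7.28 in B7.10 against 3.34, 3.71, 3.99 and 3.63 in B41-13. The difference was -3.65 ± 0.11, with DT40 at -3.93 and B46-5 at -1.17. NEDD9, a docking protein of focal adhesions and of antigen-receptor signalling, stood at 7.89, 7.57, 8.13 and 8.05 in B7.10 and at 5.31, 5.65, 5.37 and 5.65 in B41-13. It fell by 2.41 ± 0.12 (adjusted p = 3.7e-10, limma), also on its other 3 probe sets, while B46-5 was 0.30 from B7.10 and DT40 -0.52.

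Others among the 12 largest falls of genes with a mean of at least 6 log2 in B7.10 were BTBD11 (-3.53), CMYA5 (-3.09), NUDT12 (-3.05), a NADH pyrophosphatase, EML4 (-2.63), a microtubule protein, OSBPL6 (-2.57), C1orf21 (-2.36), RNF128 (-2.36), a ubiquitin ligase of lymphocyte anergy, and RGCC (-2.11), a cell-cycle regulator. CMYA5 rests on 1 of 2 probe sets, as the other differed by -0.10. The dimmer probe sets of EML4 lay between -1.12 and -0.03 and those of OSBPL6 between -1.27 and -0.02. RNF128 gave -0.40 and -1.43 on its dimmer probe sets, and RGCC -1.07. BTBD11, OSBPL6, C1orf21 and RGCC were also low in B46-5, at -4.57, -2.62, -3.40 and -4.29 from B7.10. Each of the 24 genes lay outside the range of the 10 B7.10 arrays in all 4 B41-13 arrays. Their choice for large differences in 4 of these B7.10 arrays makes this likely. Without such a choice, 2.97% of all genes lay outside on the high side and 2.34% on the low side.

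**Figure D2:**
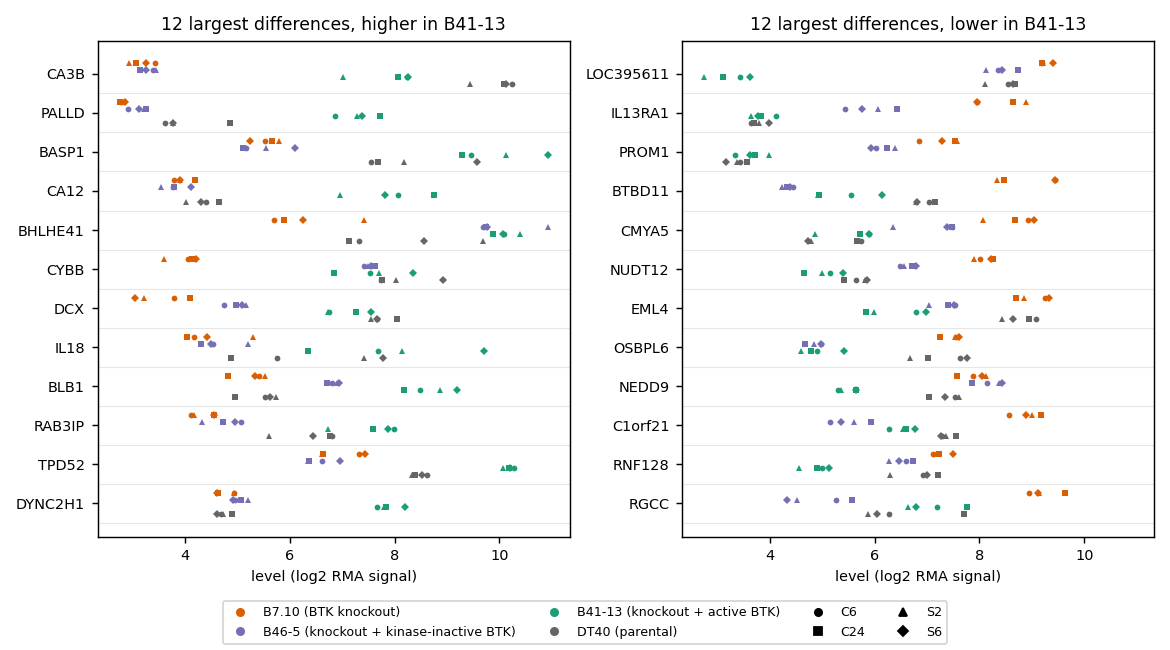
Level of the 24 genes with the largest differences (12 each way, mean of at least 6 log2 in the higher line) in each of the 16 arrays of serum batch 1 (log2 RMA signal), by line (colour) and condition (symbol). B41-13 and B7.10 do not overlap for any of them, BHLHE41 and CYBB are high in B46-5 too, and CA12 and DYNC2H1 are low in DT40 as in B7.10.

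In the B-cell receptor signalling list 13 of 42 measured members were higher and 8 lower (50% called, against 14.5% of all genes), with a median difference of 0.09 against -0.01 for all genes. The Src-family kinase FYN read 7.03, 6.36, 7.17 and 7.28 in B7.10 and 9.66, 8.55, 9.61 and 10.21 in B41-13. It was 2.55 ± 0.18 higher (limma, Benjamini-Hochberg adjusted p = 2.49e-08), 1.78 higher in DT40 and -1.29 from B7.10 in B46-5. The protein kinase C isoform PRKCH was 1.32 ± 0.12 higher (adjusted p = 7.78e-07, limma) on the brightest of 3 probe sets, the others at 0.62 and 0.40. TEC, the founding member of the BTK family, was 1.09 higher (adjusted p = 2.28e-05, limma) and was picked out after its value was seen.

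PRKCB, the protein kinase C that links BTK to NF-kB in B cells, was at 8.95, 8.97, 8.76 and 8.93 in B7.10 and at 7.81, 7.91, 7.67 and 7.34 in B41-13. It fell by 1.22 ± 0.13 (adjusted p = 5.97e-06, limma), by as much as DT40 (-1.24), with B46-5 at -0.35. The GTPase RAC2 fell by 0.66 ± 0.07 and the adaptor BANK1 by 0.73 ± 0.11, with -0.12 on the dimmer probe set of BANK1. No called member of this list lay on chromosome 10 or 11.

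In the calcium, NFAT and protein kinase C list 3 of 29 members were higher and 8 lower (median -0.09). The plasma-membrane calcium pumps ATP2B4 and ATP2B1, which export calcium, were higher by 1.27 ± 0.11 and 1.11 ± 0.13, although the other 4 probe sets of ATP2B4 lay between 0.14 and 0.38. CAMKK2, a kinase activated by calmodulin, fell by 1.64 ± 0.13, PRKCA by 1.41 ± 0.11 and RCAN1, an inhibitor of calcineurin and NFAT target, by 1.03 ± 0.09 (limma adjusted p = 9.09e-08, 6.4e-08 and 6.46e-07). CAMKK2 and RCAN1 each rest on 1 probe set, since their others, near background, lay between -0.06 and 0.11, and the other 6 probe sets of PRKCA lay between -0.61 and 0.08. PPP3CA, the catalytic calcineurin subunit, was 0.29 higher (adjusted p = 0.0412, limma), a call lost in 15 of 20 other settings.

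Immediate-early genes and feedback inhibitors of ERK had 11 of 32 higher and 2 lower (40.6% called, where all genes give 5.99% higher and 8.54% lower), and their median was 0.20. KLF2, a transcription factor of lymphocyte quiescence and homing, read 6.11, 6.29, 7.69 and 6.75 in B7.10 and 7.76, 7.99, 9.42 and 8.42 in B41-13. It was higher by 1.69 ± 0.10 (limma, Benjamini-Hochberg adjusted p = 3.35e-09) and rose at S2 in both lines. KLF2 stood 1.08 above B7.10 in B46-5 and 0.90 above it in DT40. Its chromosome 28 had a median of 0.30 in B46-5 minus B7.10, and a part of that shift in KLF2 was not tested. SPRY2, an inhibitor of receptor-to-ERK signalling, was higher by 2.76 ± 0.19 and KLF6 by 0.69 ± 0.10. SPRY2 was 2.31 higher in B46-5 too, and over the 10 arrays of 3 serum batches B7.10 reached up to 6.88. RGS2 and RGS1, which shorten G-protein signalling, were lower by -0.41 ± 0.08 and -0.75 ± 0.21 (adjusted p = 0.00281 and 0.0305, limma), and RGS1 lost its call in 11 of 20 other settings.

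In the NF-kB list 4 of 27 members were higher and 1 lower (median 0.11). NFKB1, the p105/p50 subunit, was higher by 0.98 ± 0.18 (limma, Benjamini-Hochberg adjusted p = 0.0013), CD83, an activation marker of B cells, by 2.98 ± 0.68 (adjusted p = 0.00696) and TNFAIP3 (A20), a feedback inhibitor, by 1.98 ± 0.49 (adjusted p = 0.0117). Their levels by condition are given with stimulation below. TRAF6 fell by 0.35 ± 0.10. CD83 lost its call in 4, TNFAIP3 in 6 and TRAF6 in 10 of 20 other settings, and NFKB1 in 1.

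Genes of the plasma-cell programme were higher in 5 of 10 and lower in 1 (median 0.31). JCHAIN, which joins IgM pentamers, lay between 10.71 and 11.12 in B7.10 and between 11.50 and 11.91 in B41-13, with no overlap. It was higher by 0.79 ± 0.10 (limma, Benjamini-Hochberg adjusted p = 1.98e-05). The elongation factor ELL2 was higher by 0.94 ± 0.13 and the transcription factor IRF4 by 0.84 ± 0.12. The other probe sets of ELL2 lay between -0.06 and 0.25. CREB3L2, a secretory-pathway transcription factor, was lower by -0.91 ± 0.11 on 1 of 6 probe sets.

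MHC and antigen-presentation genes were higher in 6 of 18 and lower in 1, with 1 of the 6, PDIA3, on chromosome 10. CD74, the invariant chain, was at 11.59, 11.16, 11.51 and 11.54 in B7.10 and at 12.19, 12.11, 12.29 and 12.52 in B41-13. It was higher by 0.83 ± 0.09 (adjusted p = 7.34e-06, limma), against 0.02 in B46-5 and -0.28 in DT40. IFI30, a lysosomal thiol reductase, was higher by 0.97 ± 0.10. Of the endoplasmic reticulum folding genes 11 of 45 were higher and 5 lower, 3 of the 11 on chromosomes 10 and 11 (PDIA3, HERPUD1 and SELENOS). DAD1 was higher by 0.41 ± 0.07 and DERL3 by 0.51 ± 0.09, while the oligosaccharyltransferase subunit STT3B was lower by -0.50 ± 0.10.

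B-lineage identity genes split, with 6 of 35 higher and 4 lower (median 0.03). The B-cell factor IKZF1 was higher by 0.54 ± 0.10 and the BAFF and APRIL receptor TNFRSF13B by 0.84 ± 0.14, with 0.21 on its other probe set. CXCR4, the chemokine receptor for CXCL12, read 10.75, 10.56, 10.83 and 10.79 in B7.10 and 9.46, 9.26, 9.62 and 9.52 in B41-13. It fell by 1.27 ± 0.11 (limma, Benjamini-Hochberg adjusted p = 4.85e-07). The chemokine receptor CCR6 fell by 1.79 ± 0.22, to near background, and CD38 by 1.24 ± 0.19.

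Among 48 cytokine and chemokine genes 7 were higher and 6 lower, with CCR9 at -1.57 ± 0.13 and TNFRSF21 at -0.78 ± 0.10 next to IL13RA1, and with TGFB2 at 1.03 ± 0.12 and FLT1 at 1.31 ± 0.10 next to IL18. FLT1 and CCR9 rest on 1 probe set each. Adhesion genes had 3 of 28 higher and 5 lower. The integrin alpha 4 chain ITGA4 fell by 2.34 ± 0.17 to near background, on 1 of 3 probe sets, the tetraspanin CD151 by 1.09 ± 0.09 and the integrin beta 1 chain ITGB1 by 0.49 ± 0.08 (limma adjusted p = 4.04e-08, 2.17e-07 and 0.000458). The hyaluronan receptor CD44 was higher by 0.88 ± 0.10 and ITGAV by 0.40 ± 0.10, a call lost in 6 of 20 other settings. The dimmer probe sets of CD44 lay between 0.24 and 0.59.

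The cytoskeleton list had 10 higher and 10 lower of 61. EZR (ezrin), which ties membrane proteins to actin, read 8.39, 8.08, 8.65 and 8.54 in B7.10 and 10.15, 9.79, 10.43 and 10.51 in B41-13, higher by 1.80 ± 0.08 (limma, Benjamini-Hochberg adjusted p = 1.49e-10). ANXA2, a calcium-dependent membrane-binding protein on chromosome 10, was higher by 1.82 ± 0.11, with -0.05 and 1.21 on its dimmer probe sets. Vimentin (VIM) was at 10.77, 10.83, 10.81 and 10.97 in B7.10 and at 9.69, 9.56, 9.59 and 9.67 in B41-13, lower by -1.22 ± 0.07. The actin-bundling protein LCP1 and the exchange factor DOCK11 fell by 1.03 ± 0.12 and 0.88 ± 0.09.

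Survival genes moved both ways, 5 of 42 higher and 6 lower. GADD45A, a stress-induced growth-arrest gene, stood at 10.14, 10.18, 10.49 and 10.32 in B7.10 and at 9.07, 9.18, 9.01 and 9.13 in B41-13. It fell by 1.19 ± 0.09 (limma, Benjamini-Hochberg adjusted p = 3.83e-08), while B46-5 was -0.05 from B7.10 and DT40 -1.11. BNIP3 fell by 0.53 ± 0.09 and CASP6 by 0.48 ± 0.10, with -0.10 on the dimmer probe set of CASP6. MCL1, which protects against apoptosis, was higher by 0.58 ± 0.12, with 0.20 to 0.36 on its other probe sets, none of them called. The dim BCL2A1, on chromosome 10, was higher by 0.54 ± 0.15. BCL2A1 differed by 0.10, 0.13, 1.10 and 0.84 at C6, C24, S2 and S6, and lost its call in 8 of 19 other settings.

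Of 48 mitotic genes 11 were lower and 3 higher (29.2% called, median -0.21), and of 57 repair genes 11 were lower and 3 higher (24.6% called, median -0.11), where all genes give 8.54% lower and 5.99% higher. With cyclic loess 8 genes were lower in each list, with medians of -0.16 and -0.09. The anaphase activator CDC20 fell by 0.56 ± 0.08, the motor KIF15 by 0.56 ± 0.11 and HMMR by 0.47 ± 0.09, whereas the cohesin protector SGO1 was higher by 0.91 ± 0.13 (limma adjusted p = 0.00011, 0.00141, 0.00283 and 7.98e-05). The other mitotic genes that were higher, KIF23 and CENPN, lie on chromosomes 10 and 11, as do BLM and TP53BP1 among the 3 higher repair genes. RAD54B fell by 0.57 ± 0.09, FANCB by 0.53 ± 0.09 and the end-joining ligase LIG4 by 0.75 ± 0.13. The mean level of the mitotic list lay between 9.51 and 9.79 in B7.10 and between 9.04 and 9.69 in B41-13. The gap was wider at S2, where each line has 1 array. Relative to the unstimulated arrays, the list's B41-13 minus B7.10 difference shifted by a median of -0.44 at S2 and -0.05 at S6. All genes gave -0.09 and 0.01. From C6 to S2, KIF15 changed by 0.13 in B7.10 and -0.50 in B41-13, HMMR by -0.13 and -0.67, and CDC20 by -0.22 and -0.28.

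DNA replication genes had 5 of 52 higher and 5 lower. Of the 5 higher, 4 (CDT1, GINS3, DUT and TIPIN) lie on chromosomes 10 and 11. CDT1, a licensing factor, was higher by 0.63 ± 0.10, and POLD3, ORC1 and ORC4 fell by 0.31, 0.34 and 0.26, calls lost in 1, 8 and 12 of 20 other settings. In oxidative phosphorylation 3 of the 4 higher genes of 43 lie there too, namely UQCRFS1 at 0.58 ± 0.07, COX5A at 0.42 ± 0.08 and COX4I1. Chromatin modifiers had 4 of 78 higher and 12 lower, with KDM2B at -0.57 ± 0.08, SMARCE1 at -0.43 ± 0.08 and the DNA methyltransferase DNMT3A at 0.59 ± 0.11.

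In glycolysis and hypoxia 3 of 38 genes were higher and 8 lower (28.9% called, against 14.5% of all genes; median -0.11). EGLN1, a prolyl hydroxylase that senses oxygen, was higher by 1.52 ± 0.13 on 1 of 4 probe sets, and the hexokinase HK1 fell by 0.49 ± 0.08. Of 28 ATF4 target genes 4 were higher and 3 lower (25% called), with the cystine transporter SLC7A11 at 0.92 ± 0.15, the serine-synthesis enzyme PSAT1 at 0.81 ± 0.14 and VLDLR at -2.29 ± 0.09. VLDLR, a lipoprotein receptor, stood at 5.46, 5.94, 5.86 and 6.07 in B7.10 and 3.55, 3.66, 3.39 and 3.58 in B41-13, near background, while DT40 was 1.61 above B7.10. Among 37 fatty-acid genes 2 were higher and 3 lower, the fatty-acid carrier FABP5 at -1.04 ± 0.11 (B46-5 at -3.03), and among 26 cholesterol genes 1 each way. The other probe set of FABP5, near background, differed by -0.03. Chaperones had 5 of 44 higher and 1 lower, with the haem oxygenase HMOX1 at 1.51 ± 0.31 and DNAJA4, on chromosome 10, at 0.62 ± 0.07. Ribosome biogenesis had 2 of 51 higher and 1 lower, MYCN at -1.25 ± 0.15. None of 59 ribosomal protein genes was called by limma in either direction (median 0.01).

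MAP kinases and regulators had 22.6% called, against 14.5% of all genes, 5 of 53 higher, with MAP2K1 and MAP2K5 on chromosome 10, and 7 lower. MAP2K3, an activator of p38, was higher by 1.04 ± 0.13, while the p38-type kinase MAPK11 fell by 1.16 ± 0.11 and the JNK kinase MAPK8 by 0.73 ± 0.08. Of 43 phosphatases 2 were higher and 4 lower (14% called). The receptor phosphatase PTPRG read 3.50, 3.18, 3.25 and 3.18 in B7.10 and 5.70, 5.52, 5.70 and 5.81 in B41-13, higher by 2.40 ± 0.11, and DT40 was 4.90 higher. PTPN6 (SHP-1), a brake on the receptor, was higher by 0.52 ± 0.09, and PTPRF fell by 0.96 ± 0.10. The interferon list had 2 of 32 higher and 1 lower (9.38% called), SOCS1 at -0.63 ± 0.13. Of 43 fetal-type and growth genes 18.6% were called, 4 higher and 4 lower. The higher ones included IGFBP7 at 1.82 ± 0.09 and LMO2 at 1.59 ± 0.20, with 0.62 on the dimmer probe set of LMO2. IGFBP2, at -1.07 ± 0.14, was among the lower ones.

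**Figure D3:**
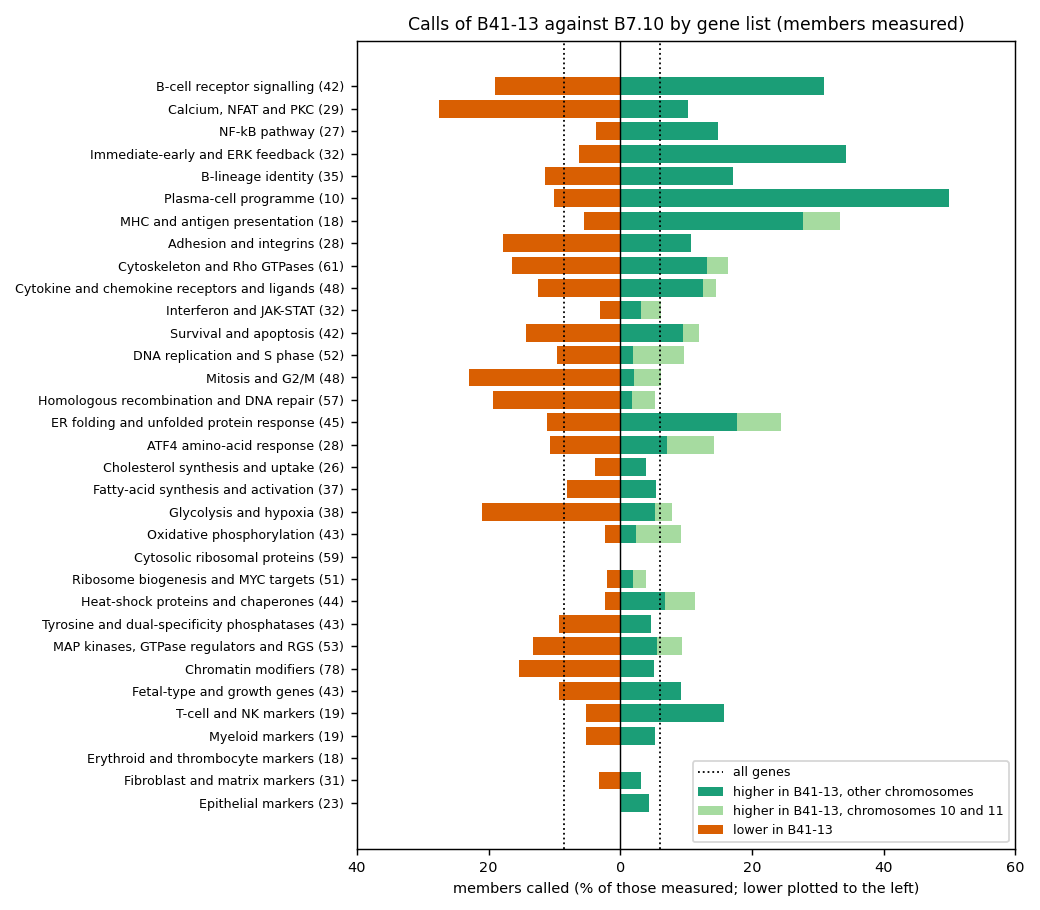
Share of the measured members of each gene list (number in brackets) that were called higher (right) or lower (left) in B41-13 than in B7.10, with members on chromosomes 10 and 11 in light green. The dotted lines mark all genes (5.99% higher and 8.54% lower), and for oxidative phosphorylation and DNA replication most of the higher calls are light green.

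T-cell and NK markers had 21.1% called, against 14.5% of all genes, 3 of 19 higher (CD5, CD8A and CD247, at 0.42, 0.36 and 0.52) and 1 lower. CD5, CD8A and CD247 lost their calls in 8, 8 and 13 of 20 other settings. Of the other lists of cell types, myeloid markers 1 of 19 each way (CYBB, and TLR2A at -0.83), fibroblast markers 1 of 31 each way, epithelial markers 1 of 23 higher and erythroid and thrombocyte markers 0 of 18 by limma. The mean level of the myeloid list lay between 4.56 and 4.70 in B7.10 and between 4.74 and 4.84 in B41-13, and that of the T-cell list between 4.67 and 4.77 and between 4.68 and 4.83. Of the myeloid markers 3 of 19 were near background in every one of the 16 arrays, and of the T-cell markers 6 of 19. Their part in the differences was not tested.

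The comparison with B46-5 sets 1 line with active kinase against 1 line with inactive kinase. In B41-13 minus B46-5, chromosomes 10 and 11 had medians of 0.25 and 0.22 and chromosome 28 had -0.33. The other chromosomes lay between -0.07 and 0.01. The kinase cannot be told apart here from these shifts or from other differences between the lines. Between B41-13 and B46-5, 4244 probe sets differed (11.1%), 1790 higher (4.66%) and 2454 lower (6.39%), or 912 (7.01%) and 1082 (8.32%) of the genes (15.3% in all), with 53% higher under cyclic loess in place of 42.2% (limma, Benjamini-Hochberg adjusted p under 0.05). Against both B7.10 and B46-5, the largest rises were those of BASP1, CA3B, PALLD, CA12, IL18 and TPD52, which exceeded B46-5 by 4.46 ± 0.26, 4.58 ± 0.16, 4.19 ± 0.15, 4.09 ± 0.18, 3.33 ± 0.38 and 3.61 ± 0.11 (limma adjusted p from 1.32e-12 to 7.58e-06). LOC395611, VLDLR, PROM1, NEDD9, IL13RA1 and LRRC1 fell most against both, with LRRC1, a scaffold of cell polarity, at -1.86 ± 0.16 from B7.10 and -2.57 from B46-5. BHLHE41, CYBB and OSBPL6 differed from B46-5 by 0.07, 0.09 and 0.05 (adjusted p = 0.93, 0.893 and 0.916, limma), with SEs of 0.24, 0.20 and 0.14. For LCP1 and FABP5, low in B41-13, the level in B46-5 was lower still, by 2.06 and 1.99. These comparisons share the B41-13 arrays or the B7.10 arrays, so their values are not independent.

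Tested over both times, S2 and S6, 0 of 38382 probe sets had a response to stimulation that differed between B41-13 and B7.10 (limma, Benjamini-Hochberg adjusted p under 0.05), while 2673 had an unadjusted p under 0.05 (6.96%, and 7.39% of the genes). With 1 stimulated condition left out, single times gave calls. With S2 as the only stimulated condition, 129 probe sets were called (0.336%), and with S6 as the only one, 14 (0.0365%). Against B46-5 the shares were 0.427% and 0.0208%. On the gene level, at S2, the response of 38 genes (0.292%) lay higher in B41-13 than in B7.10, and that of 12 (0.0922%) lay lower. Of the 38, 26 rose by at least 1 log2 from C6 to S2 in B41-13. Some of the 38 fell in B7.10, such as NSFL1C, which changed by -1.69 in B7.10 and 0.86 in B41-13. These fits leave 3 residual degrees of freedom, hold 1 stimulated array a line and take the spread from C6 and C24, so they assume that a stimulated array varies like an unstimulated one, and their calls rest on single arrays. A response there is the stimulated level minus the mean of C6 and C24. No line has an unstimulated array at 2 h, so at S2 the stimulus cannot be told apart from the shorter culture. From C6 to S2, KLF2 rose in every line, by 1.57 in B7.10, 1.66 in B41-13, 1.37 in B46-5 and 0.89 in DT40. The array of B41-13 at S2 had the lowest median of the 16. The genes below were picked after the counts were seen.

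CD83 read 2.98, 3.07, 3.27 and 3.13 in B7.10 at C6, C24, S2 and S6, and 4.84, 4.17, 9.06 and 6.29 in B41-13. DT40 had 3.29, 3.24, 8.84 and 4.12, and B46-5 3.18, 3.08, 3.73 and 3.31. B41-13 and DT40 reached about the same level at 2 h, and B7.10 and B46-5 did not. At 6 h the level was higher in B41-13, whose 6 h label is disputed, than in DT40. B7.10 lay near background throughout. The fitted 2 h response of CD83 was 4.31 ± 0.27 log2 larger in B41-13 than in B7.10 (limma, Benjamini-Hochberg adjusted p = 5.39e-06) and 3.95 larger than in B46-5 (adjusted p = 8.26e-06).

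TNFAIP3 also peaked at S2 in B41-13, with 4.11, 4.13, 4.57 and 4.16 in B7.10 and 5.16, 4.96, 8.55 and 6.24 in B41-13. It read 4.41, 4.52, 8.08 and 4.50 in DT40, and 3.61, 3.63, 3.81 and 4.02 in B46-5, below B7.10 each time. Its response was 3.04 ± 0.20 larger than in B7.10 (adjusted p = 8.6e-06, limma). NFKBIA, the NF-kB inhibitor, stood at 8.13, 7.94, 8.80 and 8.24 in B7.10 and at 8.16, 8.10, 10.68 and 8.97 in B41-13, a response larger by 1.79 ± 0.21 (adjusted p = 0.00153, limma). At C6 and C24 the NFKBIA levels of both lines lay close together, and the gap opened in the stimulated arrays. MAP3K8 (TPL2), a kinase that carries NF-kB signals to ERK, stood at 6.16, 6.00, 6.21 and 6.44 in B7.10 and at 6.34, 6.22, 9.16 and 7.88 in B41-13. The genes TNIP2, TRAF3 and NFKB1 of the same pathway had responses larger by 2.67 ± 0.23, 1.72 ± 0.24 and 1.20 ± 0.19. In all, 6 of 27 NF-kB members had a larger response in B41-13 and 0 a smaller one, with a list median of 0.13 against -0.09 for all genes.

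Of the 32 immediate-early genes 5 had a larger response and 1 a smaller one, with a list median of 0.43. DUSP5, a nuclear phosphatase of ERK, read 4.33, 4.06, 4.51 and 3.92 in B7.10, 4.90, 5.09, 9.90 and 5.65 in B41-13, 4.30, 4.53, 5.82 and 4.53 in B46-5 and 5.35, 6.29, 9.27 and 5.47 in DT40. Its response was 4.59 ± 0.34 larger than in B7.10 (limma, Benjamini-Hochberg adjusted p = 1.86e-05) and 3.50 larger than in B46-5. The zinc-finger factor EGR1 stood near background in B7.10, at 3.00, 2.94, 3.30 and 2.67, and read 3.77, 3.53, 6.18 and 4.44 in B41-13. The fitted response was 2.2 ± 0.25 larger, with the unstimulated arrays of both lines near background. The nuclear receptors NR4A3 and NR4A2 (the latter on 1 of 2 probe sets) and the stress factor ATF3 had responses larger by 2.26 ± 0.20, 1.67 ± 0.22 and 1.78 ± 0.25. RASGEF1A, a Ras exchange factor, reached 10.54 in B41-13 at S2 from 7.18 at C6, while B7.10 went from 5.52 to 5.67.

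Outside these lists, the stress-linked HERPUD1 (chromosome 11) rose from 7.75 at C6 to 9.78 at S2 in B41-13, a response 1.69 ± 0.24 larger than in B7.10. The ligand gene WNT9A and the adaptor SH3BP2 had responses larger by 2.27 ± 0.23 and 1.30 ± 0.21. A smaller response in B41-13 was found for the death ligand TNFSF10, by -1.95 ± 0.27 (adjusted p = 0.0054, limma), on 3 of 7 probe sets. RGS1 read 4.85, 4.11 and 6.83 at C6, C24 and S2 in B7.10 and 4.14, 4.15 and 4.87 in B41-13, a response smaller by -1.62 ± 0.27. The cytokinesis factor ECT2 fell from 8.07 at C6 to 6.72 at S2 in B41-13, while B7.10 went from 7.86 to 7.97. The fitted difference was -1.30 ± 0.20, and the 48 mitotic genes had a median of -0.44 with 1 call.

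Over the 38 genes with a larger response, the median change from C6 to S2 was 1.67 log2 in B41-13, which chose them together with B7.10, at 0.16. The S2 array of DT40 took no part in the choice, but its C6 and C24 arrays entered the spread. In DT40 the median was 1.35, and 23 of the 38 rose by at least 1 log2 there. In B46-5 it was 0.19, with 4 of the 38 (RASGEF1A, DUSP5, ATF3 and CHAC1) at 1 log2 or more. These are single arrays, and the values for DT40 and B46-5 have no test.

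With S6 as the stimulated condition, 6 genes (0.0461%) rose more in B41-13 and 0 less by limma, over arrays of which the B41-13 one has a disputed label. BASP1 had a response 1.91 ± 0.21 larger than in B7.10 (limma, Benjamini-Hochberg adjusted p = 0.00572), but 0.60 larger than in B46-5 (adjusted p = 0.484), and its other probe set 1.10 (adjusted p = 0.551). The surface peptidase MME read 5.25, 5.24, 5.07 and 5.18 in B7.10 and 5.82, 5.32, 6.28 and 7.44 in B41-13, a response 1.94 ± 0.25 larger, on 1 of 3 probe sets. MARCKSL1, an actin-regulating protein, went from 8.37 at C6 to 9.84 at S6 in B41-13 and from 8.35 to 8.43 in B7.10. MAP3K8, with a response larger by 1.23 ± 0.19, was called at both times. Its other probe set gave 2.51 at S2 but 0.38 at S6, and DT40 changed by 0.10 from C6 to S6.

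**Figure D4:**
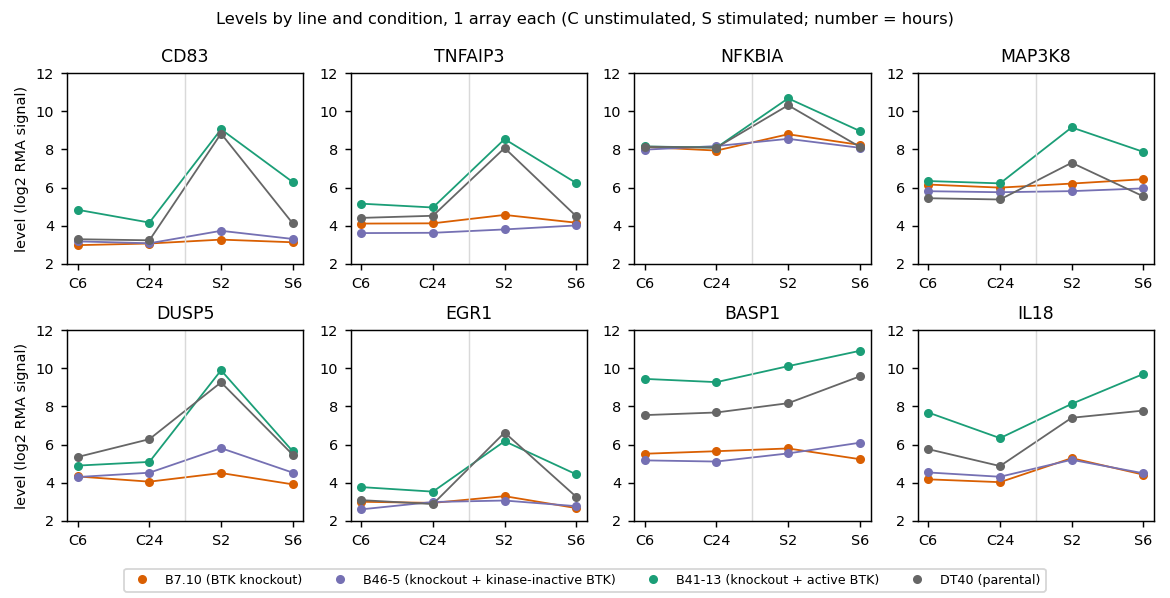
Levels of 8 genes in the 4 lines at C6, C24, S2 and S6 (log2 RMA signal, 1 array per point, lines join conditions of 1 line). CD83, TNFAIP3, NFKBIA, MAP3K8, DUSP5 and EGR1 peak at S2 in B41-13 and DT40, while BASP1 and IL18 are highest at S6 in these lines.

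Whether B41-13 moved from B7.10 towards the parental line was read on probe sets chosen in other arrays. In the 12 arrays of serum batches 2 and 3, 310 probe sets were at least 2-fold higher in DT40 than in B7.10 (limma, adjusted p under 0.05), with a median of 1.40 log2. In serum batch 1, 157 of them (50.6%, against 4.03% of all probe sets) were higher in B41-13 than in B7.10 and 12 (3.87%) were lower, and their median difference was 0.38. Of 124 probe sets lower in DT40, with a median of -1.44, 91 (73.4%, against 6.73%) were lower in B41-13 and 3 higher, with a median of -0.94. In B46-5, set against the same B7.10 arrays, the 2 medians were 0.11 and -1.05. The kinase-inactive line thus stood as far down as B41-13 for genes low in DT40, and less far up for genes high in DT40, a difference between the lines that was not tested.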

How the data were processed

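Expression was measured on 28 Affymetrix chicken arrays, and 16 of serum batch 1 enter the fits. The authors deposited log2 values, which the submitters' processing notes credit to RMA, with no version named in any source used here. From 38535 probe sets 153 controls and reporters were left out, and 38382 were tested. Symbols came from the platform table (27168 probe sets with 1 symbol, 177 with several, 11037 with none), and the brightest probe set over all arrays stood for each of 13009 genes. Chromosomes were looked up by gene ID in the GRCg7b table, which names no build for the files, and positions are not given.

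Lines were compared with limma 3.58.1 in R 4.3.3 as line plus condition (9 residual degrees of freedom), and stimulation by line with 6. Genes and probe sets were called at an adjusted p under 0.05 (Benjamini-Hochberg, always over the full set of tested probe sets, from limma). Figures used Python 3.11.15, pandas 2.3.3 and matplotlib 3.10.9. The fits were tested on simulated data. With no replicate of a line and condition, the number of arrays limits the precision.

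Genes were named by rule: BTK, the 12 largest called differences each way (mean of at least 6 log2 in the higher line), up to 3 members each way of each of 33 gene lists by adjusted p, and up to 6 each way called against both B7.10 and B46-5. The stimulation rule named none over both times. The comparison, lists and rule were chosen with earlier results of these data known. Alternatives changed the arrays fitted, condition term, dim filter, scaling, moderation, single arrays and conditions. Those without disputed arrays and without chromosomes 10 and 11 were chosen after seeing the data.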

Additional observations from a re-analysis of the deposited data

How the results depend on the processing

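No call of the 165 named genes reversed under 20 other settings, but up to 46 were lost, that many with no condition term, 25 without S6, 21 without C6 and 19 without the arrays of disputed label. The count of 4130 probe sets for B41-13 minus B7.10 was 2168 and the 4244 for B41-13 minus B46-5 was 2450 with no condition term, in which the change over conditions enters the spread. Leaving out an array or condition gave 2753 (without C6, which takes 4 arrays away) to 3945 and 2905 to 4270. Without the 3 arrays of disputed label the counts were 3069 and 2190. Calls at least 2-fold stayed between 187 and 239 higher and between 140 and 184 lower. The count of 0 for stimulation by line was 2 with the 8 arrays compared, 1 with all 28 arrays, 3 with trend and robust moderation and 8 without the disputed arrays, and 0 to 129 when an array or condition was left out (1 without the S2 array and 5 without the S6 array of B41-13, 14 without S2, 129 without S6). With no minimum fold the 248 probe sets that differ in DT40 and were called in that direction became 1287, while the share called towards DT40 dropped from 50.6% to 25.6% of those higher there and from 73.4% to 49.2% of those lower. No paired analysis was possible because the replicate number is the serum batch, and batch 1 alone holds B41-13 and B46-5, so this number pairs no arrays. Arrays were matched by condition, through the condition term of the fits. Most calls rest on differences under 2-fold, and levels near background give lower bounds.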
